A study of Danio rerio with 10 samples.

Results

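The genes described here make ribosomes or reside in the nucleolus, the nuclear body in which ribosomal RNA (rRNA) is transcribed, processed and packed with proteins. They were chosen by symbol, with earlier results of these data known. They are the genes named nop, nol, noc, utp, rrp, gnl and the like in the array annotation. Nol4lb matches by its symbol alone: it is not known for ribosome biogenesis, and it was at background in every group. Each is read through the probe set with the highest mean over all 10 arrays. The choice gave 56 genes of 8793 genes with a single symbol. Together they are covered by 66 of the 15502 probe sets tested, and 6 of the genes have several probe sets.

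The arrays are Affymetrix Zebrafish Genome Arrays hybridised with RNA of whole zebrafish embryos. In experiment 1, embryos at 4.3 h post fertilization (hpf) that had received the Sb morpholino at the 1-2 cell stage (3 arrays, called Sb morphant) were set against embryos of the same age without it (3 arrays, called control; labelled wild type, while the study's outline speaks of a placebo injection). In experiment 2, untreated wild type embryos at 4 hpf (2 arrays) were set against untreated wild type embryos at 2.5 hpf (2 arrays), that is, after and before the mid-blastula transition, when the embryo's own genome comes into broad use. A morpholino is an antisense oligonucleotide that embryos do not readily degrade. This one is aimed at an intron-exon junction of sox19b, so it acts on splicing and leaves spliced transcript from the egg untouched. No strain, parents or clutches are named in the sources used here, so the p-values measure the spread between these samples, which may be technical. The 25 bases of the morpholino are shown because they define the treatment.
sox19b morpholino: acatttgactgtggagaggaaaaaa

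Ribosome assembly begins with a long precursor rRNA that carries RNAs of both subunits. Box C/D particles (fbl, nop56, nop58) methylate it and H/ACA particles (dkc1, nhp2, gar1, nop10) convert uridines to pseudouridines. The U3 particle and the UTP proteins build the small-subunit processome on the growing precursor, while the PeBoW proteins, the Noc proteins and nucleolar GTPases mature the large subunit. In zebrafish the egg supplies ribosomes and many of the transcripts of this machinery. Nucleoli are known to form as zygotic transcription begins.

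Values are log2 (1 unit is 2-fold), and those of each experiment stand on a scale of their own. A gene rose or fell where limma's two-sided test gave a Benjamini-Hochberg adjusted p, taken over the 15502 probe sets, below 0.05. A probe set was at background in a group when its mean there is no higher than that of the brightest of 17 tag control probe sets (5.10 in Sb morphant, 5.13 in control, 6.24 at 2.5 hpf and 6.33 at 4 hpf). Over all probe sets, Sb morphant arrays correlated with each other at 0.995 to 0.996, control replicate 2 correlated with the other controls at 0.990 and 0.992, and those 2 correlated at 0.996. Among the 56 genes, control replicate 2 was the highest control array for 36. The 2 probe sets of sox19b itself were higher in Sb morphant embryos (by 0.97 and 1.33, adjusted p = 0.00214 and 1.82e-04), which does not measure a block of splicing. Marker lists of the embryo's other parts moved with the treatment: 6 of 6 first zygotic genes, 5 of 5 enveloping layer genes and 4 of 4 yolk syncytial layer genes fell, and 7 of 8 oocyte and germ plasm genes rose. The enveloping layer gene cldne was at background in both groups (means 2.88 in Sb morphant and 3.97 in control), so the size of its fall cannot be read. On the linear scale the summed level of the first zygotic genes was 751 to 1130 in Sb morphant and 4400 to 5470 in control arrays, that of the oocyte and germ plasm genes 9350 to 9470 and 1900 to 2390, that of the enveloping layer genes 435 to 648 and 4350 to 6420, and that of the yolk syncytial layer genes 89.9 to 115 and 1030 to 1990. In Sb morphant embryos 3 of the 4 yolk syncytial layer genes, 2 of the 5 enveloping layer genes and 1 of the 6 first zygotic genes were at background. Of 7 measured genes of late tissues, 6 were at background in both groups (all but ins). In 5 blastula pluripotency genes 4 fell, and nanog did not pass (adjusted p = 0.941). The part of these shifts in the results below was not tested, and in such bulk RNA fewer cells of a type and less RNA per cell cannot be told apart.

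The first comparison asks how the ribosome assembly genes differed in Sb morphant embryos at 4.3 hpf. Of the 56 genes, 29 fell (51.8%, beside 21.2% of all probe sets) and 1 rose (1.79%, beside 21.3%), so 30 were called where 42.5% of all probe sets were. The other 26 did not pass the test. The median difference of the 56 was -0.34, beside -0.04 over all probe sets, and 45 of the 56 differences were below 0. At background in both groups were 6710 of the 15502 probe sets and 1 of the 56 genes. The shares of all probe sets for this comparison, here and below, include them. With those left out, 29 of 55 genes fell and 1 rose, with a median of -0.35 beside -0.01 over the remaining probe sets. The share of those probe sets called was not counted. The falls ran from -0.32 to -2.23 with a median of -0.82, and 8 of them were at least 2-fold by the measured means (6.65% of all probe sets fell and 8.57% rose at least 2-fold, and none of the 56 rose so far). In 30 genes every Sb morphant array lay below every control array (27.3% of all probe sets), in 4 every one lay above (25.1%), and in 22 the groups overlapped. All but 1 gene, nol4lb, were above background in control embryos.

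The counts depend on how arrays are scaled. Scaling the arrays on the 27 probe sets for Bacillus controls shifted the overall median from -0.04 to 0.21. Then 18 of the 56 genes fell and 8 rose, and the median of the 56 was -0.09. The 8 were ppan, utp4, utp11, wdr43, wdr12, rrp1, nol7 and nol4lb. The share of all probe sets called under this scaling was not counted. Bacillus control counts here and below therefore stand without one, and the shares given for all probe sets belong to the values as deposited. This scaling moves every probe set of an array by the same amount. The distance between the median of the 56 and that of all probe sets, -0.30, therefore could not change. All 18 falls under Bacillus control scaling are among the 29.

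**Figure D1:**
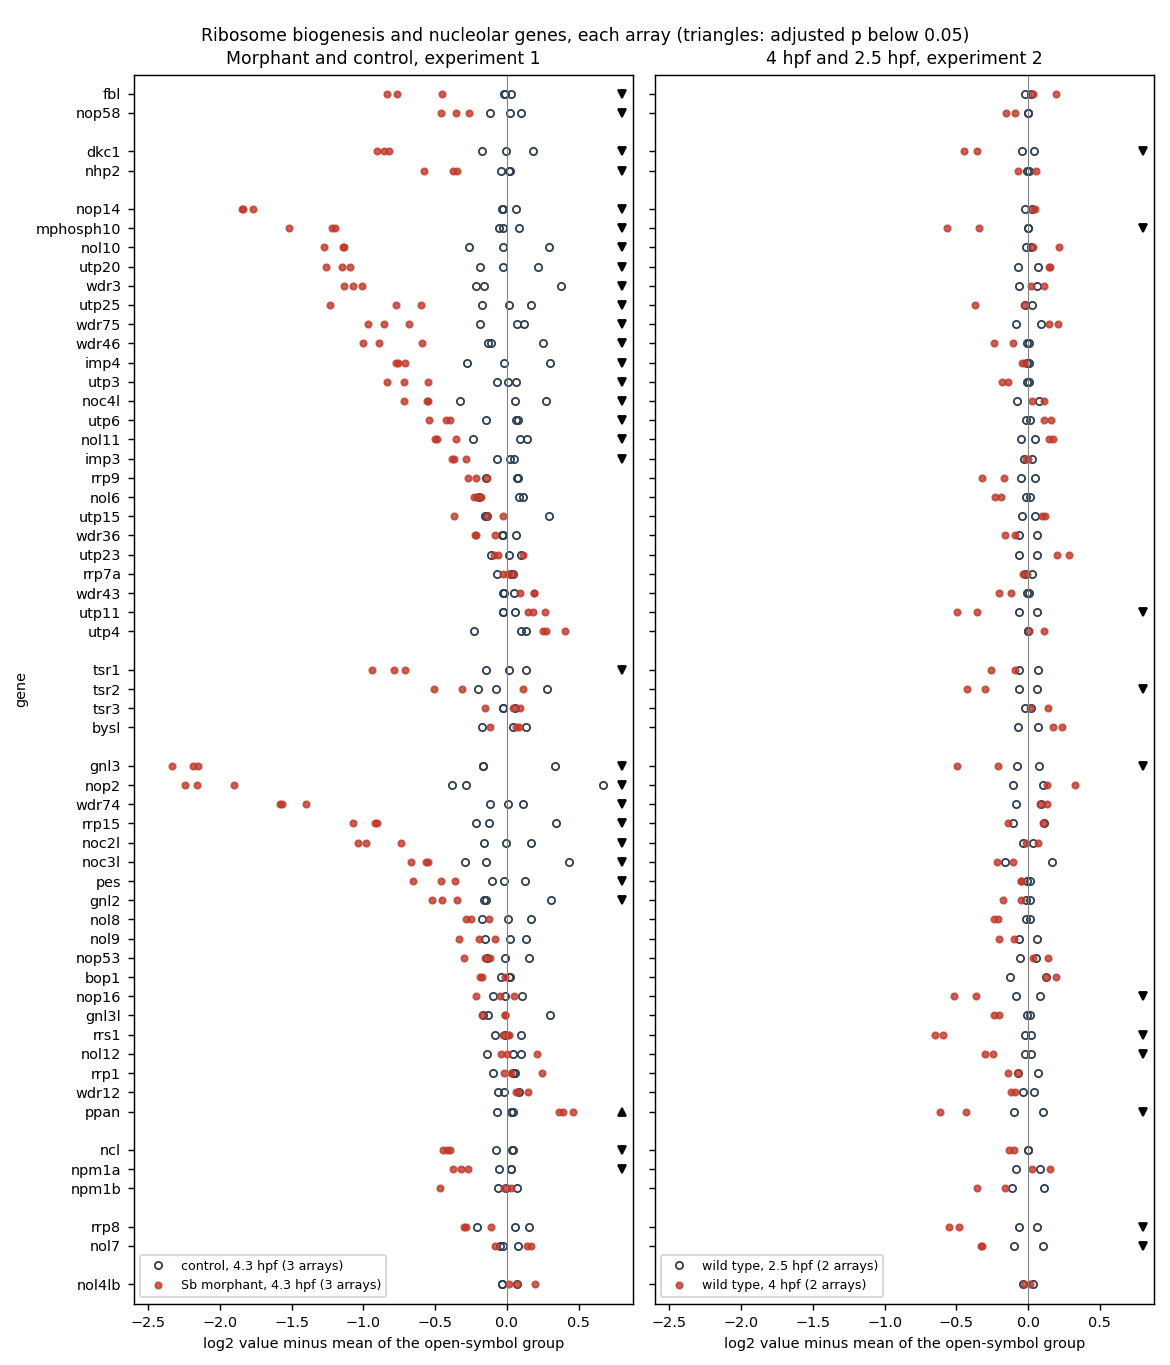
Each row is 1 gene and each point 1 array, plotted as its log2 value minus the mean of the control arrays (left) or of the 2.5 hpf arrays (right); blocks from top to bottom are box C/D, H/ACA, small-subunit processome, late 40S, 60S, multifunctional, other nucleolar and nol4lb. Triangles mark an adjusted p below 0.05, pointing down for 29 genes on the left and 11 on the right, and up for ppan alone on the left.

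The deepest falls were in factors of both subunits. The GTPase gene gnl3 encodes nucleostemin, a nucleolar protein abundant in dividing stem cells. It read 6.04, 6.19 and 6.22 in Sb morphant arrays and 8.21, 8.71 and 8.21 in control arrays. The means were 6.15 ± 0.10 (SD, n = 3) and 8.37 ± 0.29 (SD, n = 3), 4.68-fold lower (adjusted p = 1.06e-06), with all 3 Sb morphant arrays nearly 2 units under the lowest control. Nop14, a scaffold of the small-subunit processome, read 6.38, 6.39 and 6.46 against 8.20, 8.19 and 8.29 in control arrays. Its replicates lay close together in each group, and its fall was 3.53-fold (means 6.41 ± 0.04 and 8.23 ± 0.06, SD, n = 3 each; adjusted p = 3.45e-07).

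Nop2 encodes the methyltransferase that, in yeast and human cells, marks a cytosine of the large subunit's rRNA. It read 4.91 to 5.26 in Sb morphant arrays, a mean at background of 5.06 ± 0.18 (SD, n = 3), and 6.88, 7.83 and 6.78 in control arrays. The fall was at least 4.17-fold (adjusted p = 4.55e-05), and control replicate 2 was about 1 unit above the other controls. Wdr74, a 60S factor, read 4.08, 3.92 and 3.90, also at background, against 5.36, 5.59 and 5.49 in control arrays. It fell at least 1.30-fold (adjusted p = 2.06e-06), from a level that was itself close to background, and its dimmer probe set, at background in either group, read -0.31 (adjusted p = 0.0671).

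The remaining 2-fold falls were all in small-subunit processome genes. Mphosph10, which binds the U3 particle, read 6.82, 6.84 and 6.52 against 8.01, 8.12 and 7.98, a fall of 1.31 (SE 0.12, adjusted p = 8.85e-06). Nol10 read 6.24, 6.37 and 6.37 against 7.25, 7.80 and 7.48, a fall of 1.19 (SE 0.14, adjusted p = 6.15e-05). Utp20, a very long repeat protein, read 5.94, 5.83 and 5.99 against 6.90, 7.31 and 7.06, a fall of 1.17 (SE 0.12, adjusted p = 2.74e-05). In each of the 3 genes every Sb morphant array lay well below the lowest control array. Wdr3, a UTP-B protein, read 6.36, 6.42 and 6.48 against 7.28, 7.87 and 7.33, a fall of 1.07 (SE 0.15, adjusted p = 2.14e-04). All 4 probe sets of wdr3 fell, by 0.85 to 1.09.

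**Figure D2:**
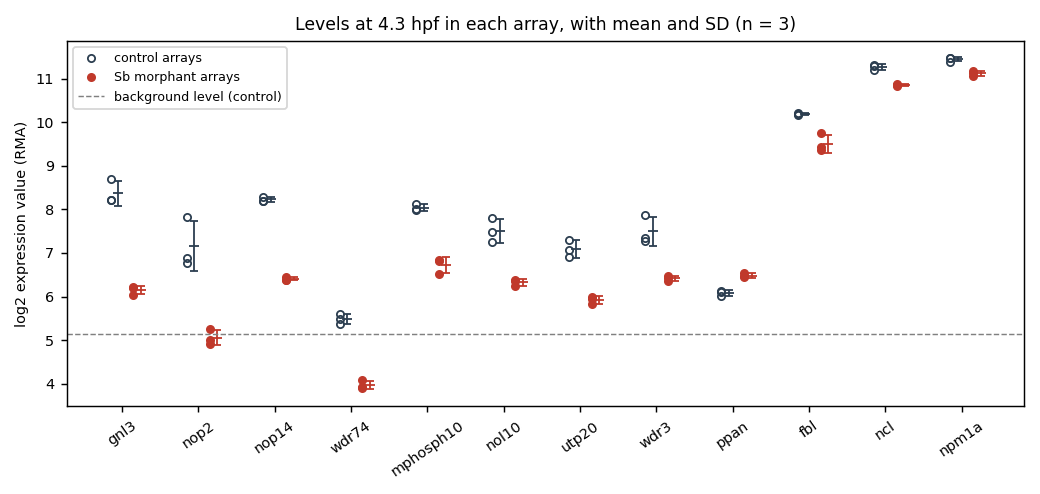
Log2 expression values at 4.3 hpf for the 8 genes with the deepest falls, for ppan and for the abundant fbl, ncl and npm1a: points are arrays (3 per group), bars beside them the mean with its SD, and the dashed line the background level of control arrays (5.13). The Sb morphant means of nop2 and wdr74 lie under that line, although nop2 reads 5.26 in replicate 2. Ncl and npm1a stay above 10.8 in every array.

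Of 23 small-subunit processome genes, 14 fell (60.9%, beside 21.2% of all probe sets). The median of the 23 was -0.46 (10 fell and 3 rose under Bacillus control scaling). By subcomplexes as they are known from yeast, the Mpp10 complex fell in all 3 of its genes, with imp4 at -0.75 (both of its probe sets fell) and imp3 at -0.35 beside mphosph10. The Nop14-Noc4 pair fell in both genes, noc4l by 0.61. In UTP-B, 4 of 5 measured genes fell: wdr3, utp6 (-0.46), tbl3 (-0.42) and pwp2h (-0.30), while wdr36 read -0.17 (adjusted p = 0.216). Tbl3 and pwp2h are not among the 56, and pwp2h was not called without any one of the 6 arrays. Under Bacillus control scaling utp6, tbl3 and pwp2h were not called (adjusted p = 0.136, 0.14 and 0.636), while wdr3 still fell. In UTP-A, which is known to bind the precursor first, 2 of 5 fell, wdr75 (-0.84) and nol11 (-0.45). The others of UTP-A read -0.18 (utp15, adjusted p = 0.384), 0.15 (wdr43, adjusted p = 0.261) and 0.31 (utp4, adjusted p = 0.0707, and 0.0475 with the replicate number as a block, when it rose). Under Bacillus control scaling wdr43 and utp4 rose (adjusted p = 0.00739 and 0.00452), and nol11 was not called (adjusted p = 0.216). Wdr43 also rose with joint quantile normalization (adjusted p = 0.0224). In UTP-C neither measured gene passed, with nol6 at -0.21 and rrp7a at 0.01 (adjusted p = 0.189 and 0.963). Whether subcomplexes differ from each other was not tested.

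Among the other processome genes 3 more fell. Utp25, also known as def, whose loss is known to stunt the digestive organs of zebrafish, read 7.49, 7.67 and 7.03 against 8.28, 8.43 and 8.09. Its fall of 0.87 (SE 0.16, adjusted p = 0.00144) separated the groups, although its Sb morphant arrays were the most scattered of the 56 genes (SD 0.33). Wdr46 fell by 0.83 and utp3 by 0.70. Rrp9, a U3 protein, utp23 and utp11 read -0.21, -0.01 and 0.20 (adjusted p = 0.161, 0.942 and 0.15). Under Bacillus control scaling utp11 rose (0.44, adjusted p = 0.00431).

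In this set, 2 of 2 box C/D genes and 2 of 2 H/ACA genes fell (100% each, beside 21.2% of all probe sets). Under Bacillus control scaling 1 of 2 fell and 0 rose in each group. Nop58 and nhp2 were then not called (adjusted p = 0.363 and 0.172). Fbl encodes fibrillarin, the methyltransferase of box C/D particles. It read 9.74, 9.43 and 9.36 in Sb morphant arrays and 10.18, 10.22 and 10.18 in control arrays, a fall of 0.68 (SE 0.12, adjusted p = 9.64e-04). Nop58, a core protein of the same particles, fell by 0.36 (adjusted p = 0.0226), and its second probe set by 0.53. Dkc1 encodes dyskerin, the pseudouridine synthase of H/ACA particles, and read 8.37, 8.34 and 8.29 against 9.18, 9.37 and 9.02. It fell by 0.86 (SE 0.12, adjusted p = 1.51e-04), and its partner nhp2, at a level above 10 in every array, fell by 0.43 (adjusted p = 0.00708). Nop56, gar1, nop10 and bms1 have no probe set in this set of genes and were not analysed here.

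Large-subunit genes were split. Of 19 genes of 60S maturation, 8 fell (42.1%, beside 21.2% of all probe sets) and 1 rose (5.26%, beside 21.3%). The median of the 19 was -0.20 (5 fell and 3 rose under Bacillus control scaling, with a median of 0.04). Besides gnl3, nop2 and wdr74, the falls included rrp15, which read 7.12, 7.27 and 7.28 against 7.98, 8.53 and 8.06 (-0.97, adjusted p = 3.56e-04). Noc2l read 6.75, 6.51 and 6.45 against 7.33, 7.66 and 7.48 (-0.92, adjusted p = 1.67e-04), and its partner noc3l fell by 0.59. In both noc2l and rrp15 no Sb morphant array reached the lowest control. Of the 3 PeBoW genes, pes fell by 0.49 (adjusted p = 0.00601), bop1 read -0.13 (adjusted p = 0.384) and wdr12 0.09 (adjusted p = 0.521), and 0 of the 4 probe sets of bop1 were called by limma. Under Bacillus control scaling wdr12 rose (adjusted p = 0.022) and pes was not called (adjusted p = 0.108). Among the nucleostemin-like GTPases gnl2 fell by 0.44, and gnl3l read -0.07 (adjusted p = 0.757). Rrs1, which in yeast helps to place the 5S rRNA, read 7.77 ± 0.02 in Sb morphant and 7.78 ± 0.09 in control embryos (SD, n = 3 each; adjusted p = 0.994).

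Ppan was the 1 gene of the 56 that rose. It encodes the counterpart of yeast Ssf1, an early 60S factor, and read 6.54, 6.47 and 6.44 in Sb morphant arrays and 6.10, 6.12 and 6.01 in control arrays. The groups did not overlap, and the rise was 0.41 (SE 0.10, adjusted p = 0.00734). In yeast its product works with those of rrp15, which fell, and of Rrp14. The counterpart of Rrp14, surf6 (not among the 56), rose by 0.35 (adjusted p = 0.0326). Surf6 was not called without Sb morphant replicates 1 or 3 or control replicates 1 or 3. It was also not called with joint quantile normalization (adjusted p = 0.0963), and its adjusted p was up to 0.117 over the alternatives. Surf6 also fell between 2.5 and 4 hpf (-0.41, adjusted p = 0.00731).

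Of the 4 genes of late 40S maturation, 1 fell (25%, beside 21.2% of all probe sets). It was tsr1, which fell by 0.82 (adjusted p = 2.21e-04), while bysl and tsr3 read 0.01 and -0.01. Tsr2 read -0.24 (adjusted p = 0.333), with overlapping groups. Of the 3 genes of multifunctional nucleolar proteins, 2 fell (66.7%, beside 21.2%). Nucleolin, ncl, read 10.88, 10.85 and 10.82 against 11.20, 11.30 and 11.32, a fall of 0.42 (SE 0.10, adjusted p = 0.00562). Nucleophosmin npm1a read 11.12, 11.07 and 11.17 against 11.47, 11.39 and 11.47, a fall of 0.32 (SE 0.10, adjusted p = 0.023). These falls were small, but in both genes all Sb morphant arrays lay below all control arrays. The duplicate npm1b, with a level near 7, read -0.15 (adjusted p = 0.444).

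Of the 30 calls, 19 held in each of the 14 alternatives run. Another 5 (ncl, nhp2, noc4l, pes and utp6) were lost only under Bacillus control scaling. The other 6 were also lost when single arrays were left out. Gnl2 was lost without Sb morphant replicates 1 or 2 or control replicate 2 (adjusted p = 0.0927, 0.0695 and 0.0615). Imp3 was lost without Sb morphant replicates 1 or 3 or control replicate 3 (0.0541, 0.0506 and 0.0601), and noc3l without Sb morphant replicates 1 or 3 (0.0632 and 0.0501). Nol11 was lost without Sb morphant replicate 2 or control replicates 1 or 3 (0.0516, 0.0518 and 0.057). Nop58 was lost without Sb morphant replicates 2 or 3 or control replicates 2 or 3 (0.0944, 0.0549, 0.0541 and 0.0657) and with joint quantile normalization (0.132), and npm1a without Sb morphant replicates 1 or 2 or control replicates 1 or 3 (0.0602, 0.0864, 0.0662 and 0.0686) and with the mean of its 2 probe sets (0.117), the second of which is dimmer and read -0.13. With control replicate 2 left out, 29 of the 56 genes fell, 27 of them among the 29 above. The 2 gained were nol6 and rrp8 (adjusted p = 0.0422 and 0.0383), and utp4 then rose (adjusted p = 0.0341).

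The second comparison asks how the same genes moved across the mid-blastula transition of wild type embryos. At 2.5 hpf 51 of the 56 were already above background, before broad zygotic transcription. From 2.5 to 4 hpf 11 fell (19.6%, beside 9.88% of all probe sets, and 19.5% called in either direction) and 0 rose by limma (beside 9.66%). At an unadjusted p under 0.05, 3 of the 56 differences were above 0 and 16 below 0. Of all 15502 probe sets, 3052 were above 0 and 2295 below 0 at that threshold. The median difference of the 56 was -0.10, beside 0.05 over all probe sets, and -0.0391 without 2.5 hpf replicate 1. At background at both times were 7639 of the 15502 probe sets and 5 of the 56 genes. The shares of all probe sets for this comparison include them. With those left out, 14 of 51 genes fell and 1 rose, with a median of -0.11 beside -0.02 over the remaining probe sets. The share of those probe sets called was not counted. Over the same hours 4 of 6 first zygotic genes rose (summed linear level 209 to 222 at 2.5 hpf and 1030 to 1070 at 4 hpf). All 6 were at background at 2.5 hpf, so their sum there is made of background values, and 2 were at background at 4 hpf. Of 8 oocyte and germ plasm genes, 5 fell and 1 rose (11900 to 12000 and 8570 to 8710). The part of these marker genes in the result was not tested. The falls were small, between -0.27 and -0.62, and none reached 2-fold (0.284% of all probe sets fell and 0.819% rose by 2-fold or more). In 29 genes both later arrays lay below both earlier ones (24.6% of all probe sets) and in 11 both lay above (37.7%). With 2 arrays a group the standard errors were 0.09 to 0.11, and the 45 genes that did not pass lay between -0.26 and 0.24. With joint quantile normalization, with dim probe sets left out or with eBayes under trend and robust settings, 1 gene rose, which was utp23 (0.24, adjusted p = 0.0855 as deposited) each time.

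Rrs1, not called in experiment 1, fell most. Its values were 9.35 and 9.39 at 2.5 hpf, then 8.77 and 8.72 at 4 hpf, a fall of 0.62 (SE 0.09, adjusted p = 4.90e-04). Ppan followed with a mean of 7.10 ± 0.14 at 2.5 hpf and 6.57 ± 0.13 at 4 hpf (SD, n = 2 each), a fall of 0.53 (adjusted p = 0.00443). Rrp8, which encodes a nucleolar methyltransferase, read 8.18 and 8.31 before the transition and 7.76 and 7.69 after it, a fall of 0.52 (adjusted p = 0.00237). In all 3 genes both later arrays were below both earlier ones.

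Mphosph10 read 8.50 in both arrays at 2.5 hpf and 7.93 and 8.16 at 4 hpf (-0.45, adjusted p = 0.00782). The 60S factor nop16 read 9.42 and 9.59 against 9.14 and 8.98 (-0.44, adjusted p = 0.00934), and the processome gene utp11 read 9.38 and 9.26 against 8.96 and 8.82 (-0.43, adjusted p = 0.00866). Dkc1 fell by 0.40 (adjusted p = 0.00953), tsr2 by 0.36 (adjusted p = 0.019), gnl3 by 0.35 (adjusted p = 0.0404), nol7 by 0.33 (adjusted p = 0.0337) and nol12 by 0.27 (adjusted p = 0.0466). With joint quantile normalization gnl3, nol7 and nol12 were not called (adjusted p = 0.0727, 0.0631 and 0.0975). Under Bacillus control scaling gnl3 and nol12 were not called (adjusted p = 0.0619 and 0.0524). Of the 11 falls, 5 (dkc1, ppan, rrp8, rrs1 and utp11) held in each of the 12 alternatives run. Mphosph10 was lost without 4 hpf replicate 1 (adjusted p = 0.0504) and nop16 without 2.5 hpf replicate 2 (adjusted p = 0.0779). Tsr2 was lost without 2.5 hpf replicate 1 or 4 hpf replicate 1 (0.0845 and 0.0896), gnl3 without 2.5 hpf replicate 2 or 4 hpf replicate 2 (0.219 and 0.274), and nol7 without 2.5 hpf replicate 2 or either 4 hpf array (0.243, 0.0667 and 0.0611). Nol12 was lost whichever array was left out (0.0833 to 0.189). Utp25 was gained without 4 hpf replicate 1 (adjusted p = 0.0288), and npm1b, at background at both times, without 2.5 hpf replicate 1 or 4 hpf replicate 1 (0.0472 and 0.0363). With 2.5 hpf replicate 2 left out, 7 of the 56 genes fell.

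Other well known genes did not pass the test between the stages. Fbl had 10.09 and 10.05 at 2.5 hpf, then 10.26 and 10.10 at 4 hpf (0.12, adjusted p = 0.403). Ncl differed by -0.12, nop58 by -0.12, npm1a by 0.09 and nhp2 by -0.01 (adjusted p = 0.371, 0.337, 0.541 and 0.952). Nop14 read 8.43 and 8.38 against 8.42 and 8.45 (0.03, adjusted p = 0.811). Of the PeBoW genes, bop1 differed by 0.16 and wdr12 by -0.10 (adjusted p = 0.288 and 0.435), and pes, like nop2 and wdr74, was at background at both times. Probe sets of the same gene differed in sign for bop1, nop58 and wdr74. The 4 of bop1 read 0.19, 0.16, -0.22 and -0.19, with 0 called. The second probe set of nop58 read 0.08 (adjusted p = 0.564). Those of wdr74, at background at both times, read 0.11 and -0.04 (adjusted p = 0.451 and 0.765).

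The experiments share no array, and their calls can be set side by side. Of the 29 genes that fell in Sb morphant embryos, 26 were above background at 2.5 hpf. Between 2.5 and 4 hpf 3 of the 29 fell (dkc1, gnl3 and mphosph10), and the other 26 were not called, with a median difference of -0.01 over the 29. The fall of gnl3 between these stages was not called with joint quantile normalization or under Bacillus control scaling. Genes that both fell in Sb morphant embryos and rose by 4 hpf were 0 of the 56 and 3.74% of all probe sets, while 5.36% of the 56 and 1.03% of all probe sets fell in both. None of the 56 rose in both (1.05% of all probe sets). Ppan was the 1 gene with calls in opposite directions, higher in Sb morphant embryos and lower at 4 hpf, as were 5.9% of all probe sets. Of the 8 genes with falls of at least 2-fold by the measured means in Sb morphant embryos (wdr74 among them, with its bound of 1.30-fold), 2 (gnl3 and mphosph10) were called in the stage comparison. Across the 56 genes the rank correlation between both differences was -0.22, beside -0.36 across 8793 genes.

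**Figure D3:**
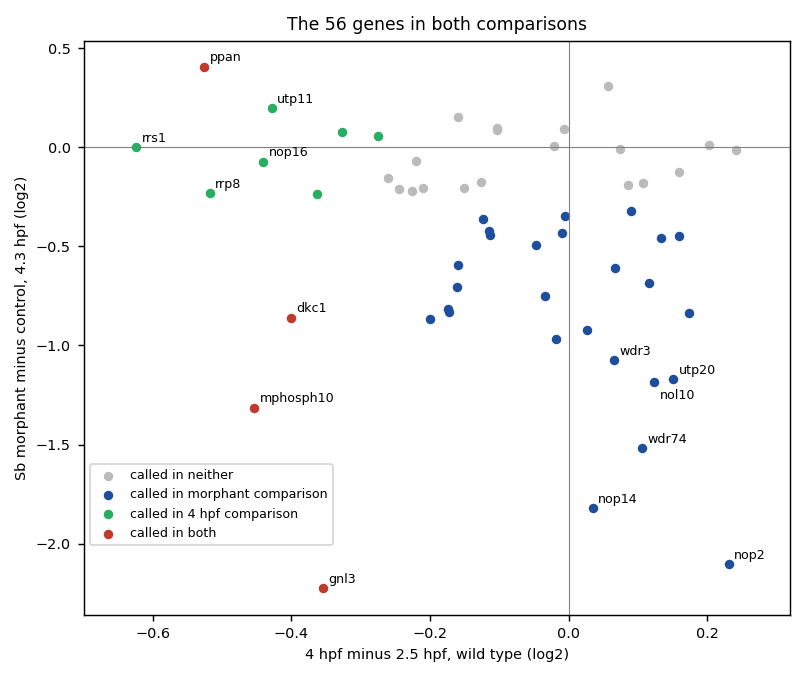
Each point is 1 of the 56 genes, with the change from 2.5 to 4 hpf on the x axis and the difference between Sb morphant and control embryos at 4.3 hpf on the y axis (both log2); colours give the comparisons in which the adjusted p was below 0.05. Nop14 lies near 0 on the x axis, and gnl3 and mphosph10 lie left of it. Nop2, wdr74, pes, npm1b and nol4lb, at background at both times, have no readable place on the x axis. Only ppan is called upward on the y axis and to the left on the x axis.

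Ribosome assembly genes outside the 56 were described by role in the same way. Of 97 measured genes on a list of RNA polymerase I factors, exosome subunits, helicases and assembly factors, 45 fell and 17 rose in Sb morphant embryos (21.2% and 21.3% of all probe sets did), with a median of -0.23 (24 fell and 29 rose under Bacillus control scaling). Among genes above background in both groups the deepest falls were those of the exosome subunit exosc5 (-1.75) and of snu13b (-1.54), whose product binds U3 and other box C/D RNAs. The 60S factor mak16 fell from 5.57 to 3.46, which is at background, so that its fall is at least 1.38-fold (adjusted p = 5.23e-06). With fbl and nop58, snu13b made 3 falls among the 4 measured genes for proteins of the U3 particle. Nop58 was not called under Bacillus control scaling (adjusted p = 0.363). Small-subunit factors fell in 13 of 22 genes (6 fell and 4 rose under Bacillus control scaling). Large-subunit factors fell in 13 and rose in 3 of 27 (6 and 6 under that scaling). Helicases fell in 8 and rose in 3 of 14 (5 and 3), and exosome and trimming genes fell in 4 of 9 (4 fell and 1 rose).

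RNA polymerase I genes moved both ways. Of 13 measured genes for transcription of rRNA, 7 rose (53.8%, beside 21.3% of all probe sets) and 5 fell (38.5%, beside 21.2%). The median of the 13 was 0.47 (7 rose and 3 fell under Bacillus control scaling). The largest rises of the whole list were those of ubtfl (1.75), of znhit3, an assembly factor of box C/D particles (1.18), and of the helicase gene ddx31 (1.18). Of 6 measured subunits of the polymerase, 4 rose and 1, polr1b, fell (-0.47, adjusted p = 0.0102; not called under Bacillus control scaling, adjusted p = 0.126). Polr1h read 8.24 ± 0.16 (SD, n = 3) in Sb morphant and 7.09 ± 0.31 (SD, n = 3) in control embryos, a rise of 1.14 (adjusted p = 1.64e-04), and polr1e rose by 1.08, polr1g by 0.91 and polr1a by 0.48. Of 12 genes of particle assembly and RNase MRP, 4 rose (33.3%, beside 21.3%) and 2 fell (16.7%, beside 21.2%). The median of the 12 was 0.29 (8 rose and 0 fell under Bacillus control scaling). The list was written with earlier results of these arrays known, and no test compared it with other genes.

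Between 2.5 and 4 hpf 17 of the 97 fell and 4 rose (9.88% and 9.66% of all probe sets did), with a median of -0.05, beside 0.05 over all probe sets. The largest falls were those of polr1g (-0.72), polr1h (-0.64) and the helicase gene ddx49 (-0.64). Polr1g and polr1h thus moved in opposite directions in the 2 experiments. The largest rises were those of polr1e (0.45), exosc4 (0.34) and ruvbl2 (0.32), and each lost its call without 2.5 hpf replicate 2. The rise of exosc4 rests on 1 probe set: its brightest probe set within experiment 2 read -0.01 (adjusted p = 0.953), and the mean of its probe sets 0.21 (adjusted p = 0.141). Exosc4 was also lost without 4 hpf replicate 1, and ruvbl2 without 2.5 hpf replicate 1 or 4 hpf replicate 2. The highest adjusted p over the alternatives was 0.0535 for polr1e and 0.153 for ruvbl2, and both exosc4 and ruvbl2 were lost with arrays centred on their medians (0.057 and 0.0848). With 2.5 hpf replicate 2 left out 10 of the 97 fell and 0 rose. With 4 hpf replicate 2 left out 10 fell, and with 4 hpf replicate 1 left out 2 rose.

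**Figure D4:**
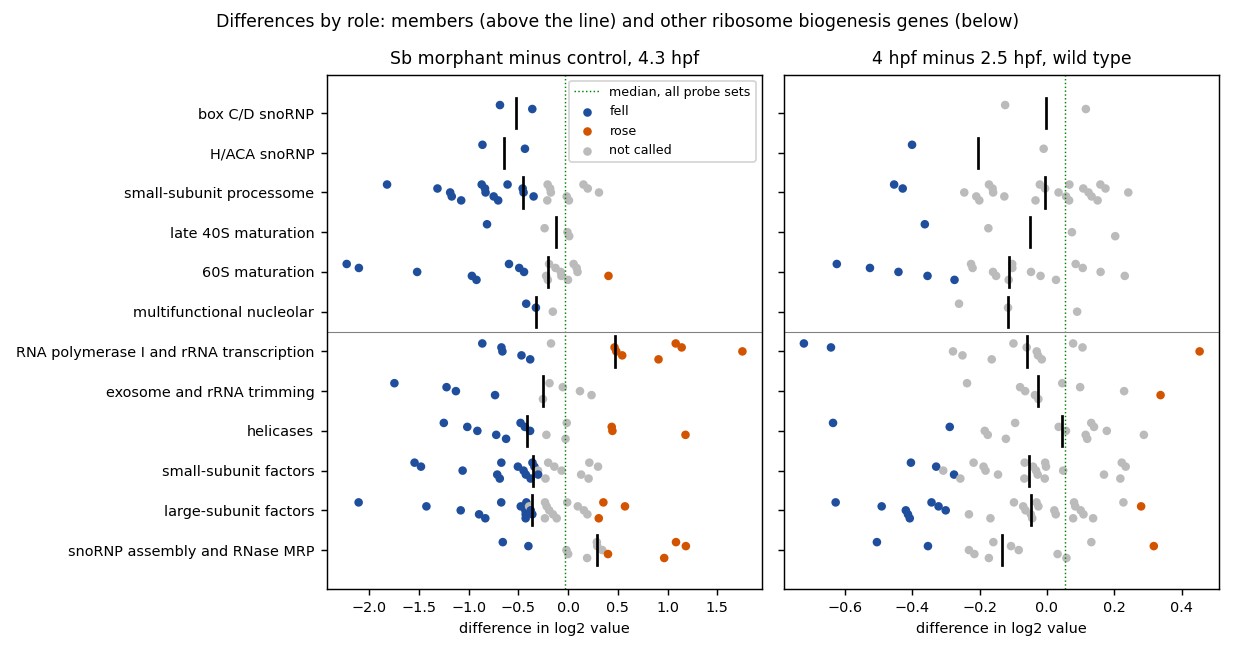
Differences in log2 value for the 6 main role groups of the 56 genes (above the line) and for the 6 groups of other ribosome biogenesis genes (below), with 1 point per gene, black bars at group medians and the dotted line at the median of all probe sets. In the left panel the medians of all groups lie below that line except those of RNA polymerase I (0.47) and snoRNP assembly genes (0.29); the x axes of both panels differ in range.

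Genes for the proteins of the ribosome itself were counted for comparison. In Sb morphant embryos 66 of 70 cytosolic ribosomal protein genes fell (beside 21.2% of all probe sets), with a median of -0.86, and 54 fell under Bacillus control scaling. In wild type embryos 30 of the 70 rose between 2.5 and 4 hpf (beside 9.66%), with a median of 0.26, and 20 rose with arrays centred on their medians. Of 59 mitochondrial ribosomal protein genes, 30 rose and 9 fell in Sb morphant embryos (beside 21.3% and 21.2%, median 0.35). Between 2.5 and 4 hpf 17 fell and 3 rose (beside 9.88% and 9.66%, median -0.18), and 26 fell with arrays centred on their medians. The assembly genes had medians of -0.34 and -0.10, with 11 and 20 of the 56 differences above 0. No test compared the 3 groups.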

How the data were processed

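The authors deposited a log2 expression value for each probe set, made with affy and robust multi-array average (RMA), per the submitters' processing notes (versions not given in the sources used here). The largest gap between sorted values of arrays was 0.362 in experiment 1, 0.194 in experiment 2 and 1.52 across both, so each experiment was analysed alone, without further normalization. Of 15617 probe sets, 115 control probe sets were left out. The annotation gave a single gene for 10795, several for 135 and none for 4572, and symbols were updated by Entrez identifier through a RefSeq table of assembly GRCz12tu (1 changed).

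Group differences were fitted with limma 3.58.1 in R 4.3.3 (lmFit, eBayes, group as the only term), which was tested on simulated data, and no low values were filtered. Arrays give no counts, so their number limits the precision. A fold against a group at background is a lower bound, taken against that group's background level. Same-numbered arrays of experiment 1 correlated at 0.318, 0.202 and 0.114 after group means were removed, all above 0.1, so the numbers were taken to pair its samples. The main test leaves this pairing out, and only the alternative with a replicate block uses it. Experiment 2 gave -0.0241. With 2 arrays a group both same-numbered pairs must give the same value, so it cannot decide whether those arrays are paired. Alternatives were other scalings, background filter, variance model, probe set choice, a replicate block and each array left out. Named are the 12 deepest falls, all rises and, per direction, the 6 largest calls of experiment 2, a set of 16 textbook genes (12 measured) and the 3 largest calls of the other genes per direction; further genes complete a complex or role group, or are those that changed under an alternative. The genes and lists were chosen with earlier results of these data known. Plots used Python 3.11.15 and matplotlib 3.10.9. Promoter motifs were not analysed here.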

Additional observations from a re-analysis of the deposited data

How the results depend on the processing

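The median of the 56 genes stayed below 0 in all alternatives run. In Sb morphant embryos 18 genes fell and 8 rose under Bacillus control scaling, and 2 rose with joint quantile normalization and with the replicate block (29 fell with either). Leaving out 1 array gave 25 to 29 falls and 1 to 2 rises. The median was -0.30 with joint quantile normalization, -0.0938 under Bacillus control scaling and -0.29 with the mean of a gene's probe sets. Of the 97 other genes, 24 fell and 29 rose under Bacillus control scaling. The replicate block changed the call of utp4 and of no other gene of the 56 there. Between 2.5 and 4 hpf, 1 gene rose with joint quantile normalization, with dim probe sets left out and with trend and robust settings, while 11 falls became 9 with joint quantile normalization and Bacillus control scaling, 16 with median centring, 14 with dim probe sets left out, 13 with trend and robust settings and 7 to 10 with 1 array left out. The median was -0.0706 with joint quantile normalization, -0.19 with arrays centred on their medians, -0.0800 with the mean of probe sets and -0.0391 to -0.10 with 1 array left out. Of the other genes 26 fell and 1 rose with median centring, 8 rose with dim probe sets left out and 8 with trend and robust settings, and leaving out 1 array gave 10 to 15 falls and 0 to 3 rises. Whether the numbers of experiment 2 pair its arrays could not be decided from its correlation of -0.0241. With the replicate block 10 of the 56 genes fell there (nol12 lost). The causes were not tested.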
